A study of Mus musculus with 22 samples.

Results

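The comparison set 11 libraries of eosinophils from mice given an antibody against IL-5 against 11 libraries from mice given its isotype control, over 4 maturation stages, with the stage as a covariate. The members are all 22 RNA-seq libraries of the series, chosen by the treatment and stage in their titles, and the question was which genes changed in common to all stages. Anti-IL5 groups and isotype groups each held 3 libraries at stages I, III and IV and 2 libraries at stage II. All mice were wild type C57BL6 and all had been given IL-33, so no group shows the marrow without IL-33. Per the labels, 400 ng IL-33 was injected into the peritoneum on each of 7 days, and 400 µg of anti-IL5 or isotype antibody was then given in 3 daily injections that began with the last IL-33 dose. The labels used here give no age or sex. Marrow cells carrying CD45R, NK1.1, CD90.2 or Ly6G had been removed, the gates of the 4 stages used CD200R3, PIR-A/B, CD117, CD55, Siglec-F, F4/80 and CD29, and the purity was 95% or more. The labels do not say whether libraries with equal replicate numbers came from 1 animal, so the p-values measure the spread between libraries. Each of the 6 combinations of treatment and replicate number carries 1 file number over all stages, whose meaning is not given.

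Eosinophils are granulocytes that store basic proteins in their granules and mature in the bone marrow. IL-5 is the cytokine that drives their expansion and survival: it binds Il5ra together with the beta chain Csf2rb, activates JAK2 and STAT5, and STAT5 switches on feedback inhibitors (Cish, Socs2, Socs1), Pim kinases and survival genes. IL-33 raises eosinophil numbers in part through IL-5 made by other cells, so an antibody against IL-5 given after IL-33 acts on a population that has already begun to expand.

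Of 24982 genes in the files, 16619 had at least 1 count and 12387 were tested. Levels are counts scaled to the library size (CPM, with TMM factors) and effects are log2 fold changes of anti-IL5 against isotype from 1 edgeR quasi-likelihood fit over all 22 libraries, with their standard errors (SE). Genes with a p under 0.05 after Benjamini-Hochberg adjustment over all tested genes were called. Of the genes tested, 2150 (17.4%) were called, 949 higher (7.66%) and 1201 lower (9.7%) under anti-IL5, and 85 of the higher and 249 of the lower genes moved by more than 1 on the log2 scale. With libraries of equal treatment and number averaged over stages I, III and IV (3 means against 3), 917 genes were called by limma. The estimated effect had 1 sign in all 4 stages for 1839 of the 2150 called genes (85.5%) and for 4112 of all 12387 tested genes (33.2%). The call pools the effects of the same stages, so a larger share among called genes follows in part from the call itself. The median effect over all tested genes was -0.0059.

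A stricter reading asked for a called gene whose anti-IL5 libraries all lay above, or all below, the isotype libraries within each of the 4 stages, here termed separated in every stage. This held for 193 genes, 1.56% of those tested and 8.98% of those called: 81 were higher (0.654%) and 112 lower (0.904%). The higher genes had a median log2 effect of 0.66 and the lower genes of -0.85. The lower genes had stage medians of -0.71, -0.88, -1.01 and -0.67 from stage I to stage IV, and the higher genes of 0.76, 0.81, 0.71 and 0.46. Genes called but separated in 3 of 4 stages numbered 300 higher and 489 lower. The sort yields bulk RNA, in which fewer cells of a type and less RNA per cell cannot be told apart.

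**Figure D1:**
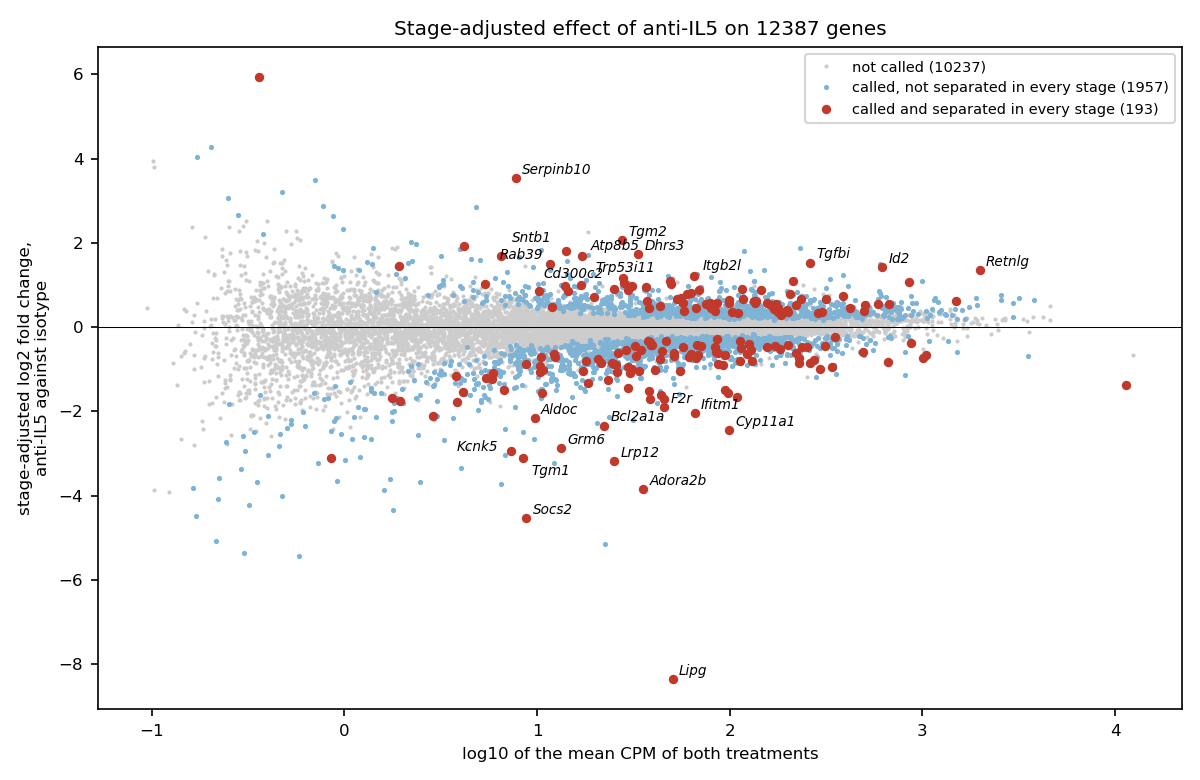
Stage-adjusted log2 fold change of anti-IL5 against isotype (vertical axis) by the log10 of the mean CPM of both treatments (horizontal axis), for 12387 genes. Grey points were not called, blue points were called and red points were called and separated in every stage (193 genes). Labelled are the 24 largest rises and falls among red points with at least 10 CPM and no predicted symbol, with Lipg at -8.35 and Serpinb10 at 3.54.

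With a mean of 10 CPM or more, 4 genes had no overlap between any of the 11 anti-IL5 libraries and any of the 11 isotype libraries, whatever the stage: Lipg, Socs2 and Tgm1 were lower and Sntb1 was higher. In all, 6 tested genes (0.0484%) had this pattern, 4 lower (0.0323%) and 2 higher (0.0161%). The other 2, Bex1 (lower) and the predicted gene Gm12185 (higher), were below 10 CPM.

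Lipg encodes endothelial lipase, a secreted enzyme that cleaves the phospholipids of lipoproteins. Its level in isotype libraries was 70.3, 95.7 and 65.5 CPM at stage I, 94.0 and 262 CPM at stage II, 188, 178 and 146 CPM at stage III, and 3.57, 5.76 and 2.15 CPM at stage IV. Anti-IL5 libraries held 0, 0.19 and 1.36 CPM at stage I and 0 and 1.05 CPM at stage II, and at stages III and IV the highest of 6 libraries was at 0.098 CPM. The highest anti-IL5 library therefore lay below the lowest isotype library, although the isotype level itself was far lower at stage IV than before. The stage-adjusted log2 effect was -8.35 ± 0.46 (SE; adjusted p = 2.28e-10), from 30 counts in all anti-IL5 libraries together.

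Socs2 encodes a feedback inhibitor of cytokine receptors that STAT5 induces. It ran from 0 over a median of 0.577 to 3.34 CPM in anti-IL5 libraries and from 6.37 over 14.03 to 30.5 CPM in isotype libraries. In both treatments stage IV held the highest libraries, and the anti-IL5 libraries at stage IV (3.34, 1.07 and 1.71 CPM) still lay below every isotype library. The effect was -4.53 ± 0.32 (SE; adjusted p = 2.92e-09), a level 23.1-fold lower under anti-IL5.

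Tgm1 encodes transglutaminase 1, a protein crosslinking enzyme. Its level ran from 0 over 2.16 to 4.06 CPM in anti-IL5 libraries and from 8.49 over 14.9 to 28.3 CPM in isotype libraries, with no stage at which the groups met. The effect was -3.12 ± 0.41 (SE; adjusted p = 3.17e-05).

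Sntb1 encodes beta-1-syntrophin, an adaptor protein of the dystrophin complex. It stood at 15.0, 13.7 and 15.9 CPM under anti-IL5 and 4.96, 3.75 and 3.58 CPM in isotype libraries at stage I, and at 19.7, 18.9 and 20.4 CPM against 4.93, 4.24 and 4.31 CPM at stage IV. Both treatments were highest at stage III, where the anti-IL5 libraries held 32.7, 34.3 and 35.7 CPM and the isotype libraries 10.9, 12.3 and 8.73 CPM. The effect was 1.82 ± 0.13 (SE; adjusted p = 3.82e-09), with stage estimates of 1.85, 1.52, 1.68 and 2.13 from stage I to stage IV.

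In GRCm38.p6, the build that mm10 names, Socs2 lies at chr10:95383903-95417321, Tgm1 at chr14:55700009-55713921 and Sntb1 at chr15:55636388-55907302, all protein coding.

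**Figure D2:**
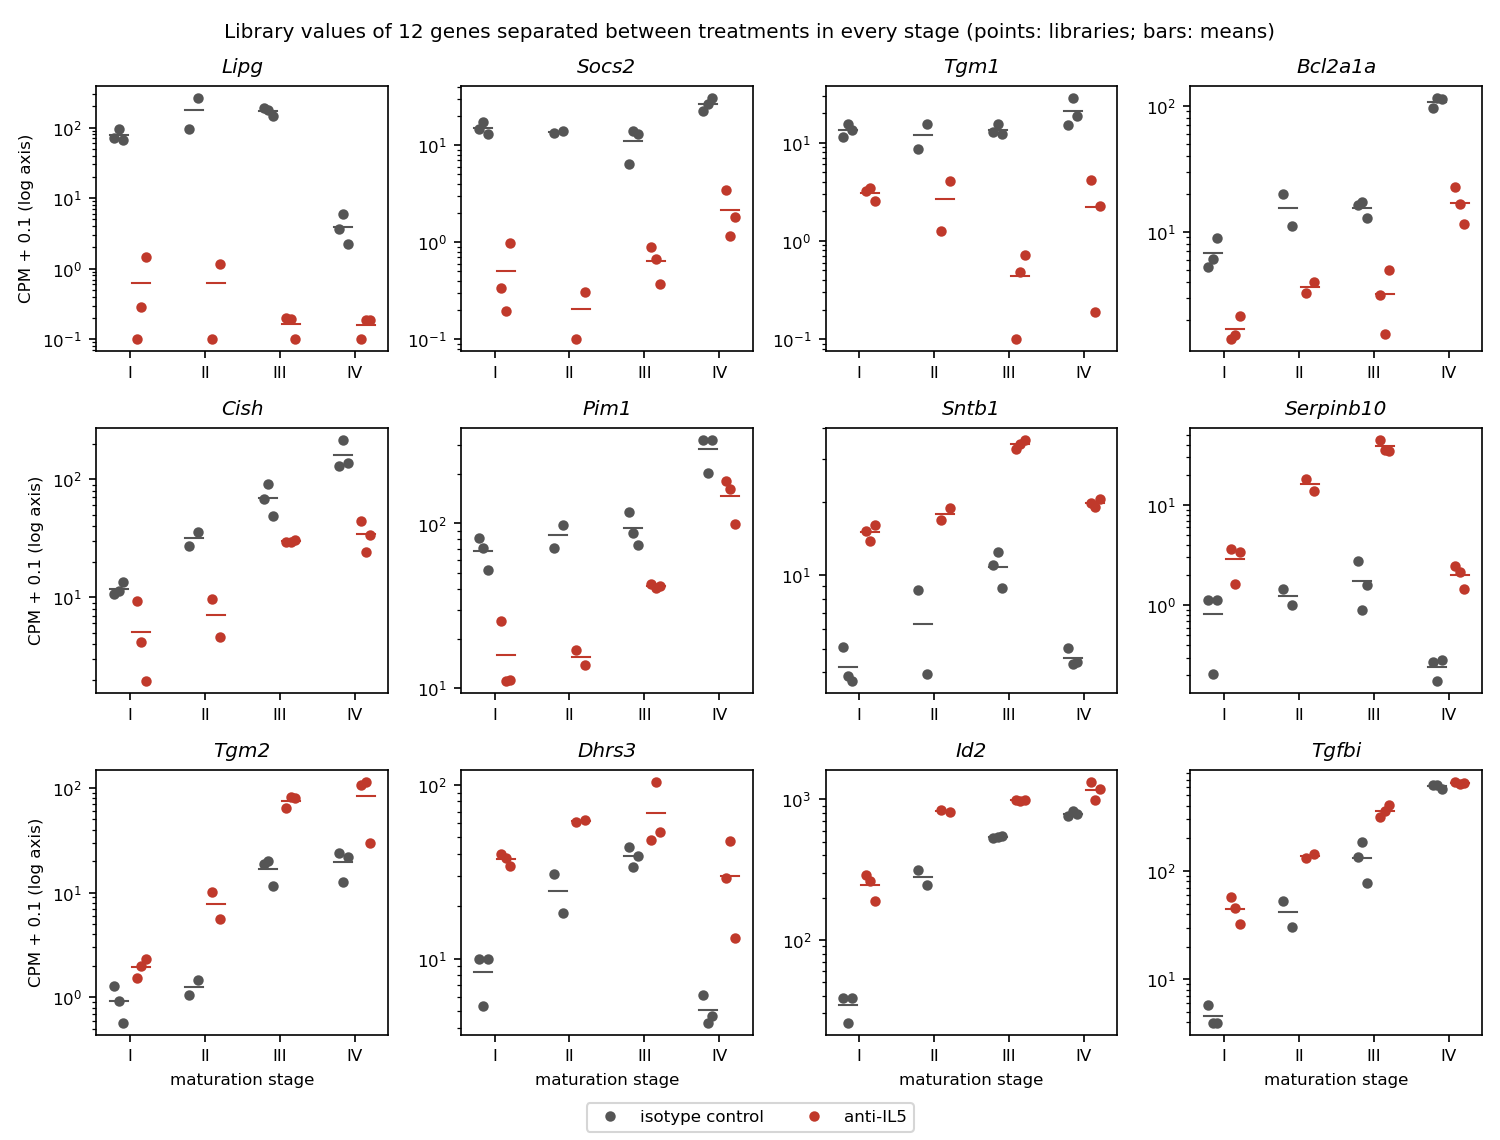
CPM + 0.1 on a log axis (vertical) by maturation stage (horizontal) for 12 genes separated in every stage, with isotype libraries in grey and anti-IL5 libraries in red. Each point is 1 library and each bar a group mean. Lipg, Socs2, Tgm1 and Sntb1 do not overlap between treatments at any pair of stages, while the other genes are separated only when libraries of 1 stage are compared.

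STAT5 target genes were lower in large part. Of 23 tested members, 10 fell and 3 rose, beside 9.7% and 7.66% of all genes tested, and their median effect was -0.68 beside -0.0059 over all genes. Socs2, Socs1, Cish, Pim1, Myc and Tnfrsf13b fell and were separated in every stage. Pim2, Pim3, Bcl2l1 and Socs3 also fell, and Bcl6, Dusp6 and Gadd45g rose. The stage medians of the list were -0.60, -0.55, -0.66 and -0.997 from stage I to stage IV. This list was drawn up with earlier results of these libraries known.

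Cish encodes the SH2 protein that occupies the STAT5 docking sites of cytokine receptors. Isotype libraries held 10.7, 11.2 and 13.3 CPM at stage I, 27.2 and 35.8 CPM at stage II, 68.0, 90.5 and 48.8 CPM at stage III, and 129, 215 and 137 CPM at stage IV. Anti-IL5 libraries held 9.12, 4.09 and 1.85 CPM, 9.55 and 4.50 CPM, 29.4, 29.2 and 30.2 CPM, and 44.3, 24.1 and 33.6 CPM at the same stages. Cish thus increased along the stages in both treatments, and the anti-IL5 level was lower at each. The effect was -1.70 ± 0.21 (SE; adjusted p = 1.83e-05), or 3.24-fold lower.

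Socs1, another feedback inhibitor of JAK kinases, ran from 8.46 over 17.3 to 37.6 CPM under anti-IL5 and from 22.3 over 47.1 to 108 CPM in isotype libraries, with an effect of -1.72 ± 0.15 (SE; adjusted p = 1.37e-07). The kinase gene Pim1, whose product supports survival downstream of STAT5, ran from 10.9 over 40.6 to 181 CPM and from 52.4 over 88.0 to 322 CPM, with an effect of -1.57 ± 0.20 (adjusted p = 2.45e-05). For both genes the overall ranges overlapped, because stage IV was high in either treatment, while the groups did not overlap within any stage.

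The growth regulator Myc followed another course along maturation. Isotype libraries fell from 363, 317 and 298.9 CPM at stage I to 9.53, 9.17 and 9.65 CPM at stage IV, and anti-IL5 libraries from 214, 185 and 258 CPM to 7.63, 5.78 and 1.08 CPM. The stage-adjusted effect of Myc was -1.48 ± 0.27 (SE; adjusted p = 0.000814).

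Socs3 fell by 1.16 on the log2 scale with an adjusted p of 0.0488, close to the threshold, and lost its call in 17 of 22 fits that left out 1 library. Bcl6, a transcriptional repressor that STAT5 is known to hold down, rose from a median of 4.31 to 10.3 CPM (1.67 ± 0.28, SE; adjusted p = 0.000353). Bcl6 was separated at stages I, II and III. At stage IV the anti-IL5 libraries held 10.3, 15.2 and 15.6 CPM and the isotype libraries 11.7, 7.42 and 7.96 CPM.

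The promoter sequences of 3 of the falling genes are shown because each holds 2 copies of the STAT5 type motif TTCNNNGAA, which reads the same on both strands. They come from RefSeq (GRCm38.p6) and are written 5′ to 3′ on the gene's strand, with the motif in capitals. For Tgm1 (chr14:55713493-55713742, minus strand) and Aldoc (chr11:78323948-78324197, plus strand) the 250 bases before 1 of the 2 transcription starts in the table of promoters are shown, and for Cish the 20 bases from the start site onward (chr9:107296659-107296678, plus strand).
Cish: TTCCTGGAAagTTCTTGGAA
Tgm1: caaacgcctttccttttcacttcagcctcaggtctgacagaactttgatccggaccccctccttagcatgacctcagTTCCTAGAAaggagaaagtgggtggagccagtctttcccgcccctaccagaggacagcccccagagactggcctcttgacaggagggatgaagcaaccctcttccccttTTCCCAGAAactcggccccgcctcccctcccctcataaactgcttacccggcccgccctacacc
Aldoc: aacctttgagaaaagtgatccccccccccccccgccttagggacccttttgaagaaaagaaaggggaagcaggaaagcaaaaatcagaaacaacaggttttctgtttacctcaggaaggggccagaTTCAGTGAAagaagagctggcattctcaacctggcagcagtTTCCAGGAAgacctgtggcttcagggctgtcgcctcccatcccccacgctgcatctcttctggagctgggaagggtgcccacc

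The first bases of the motifs lay at 1 and 12 in Cish, at -173 and -64 in Tgm1 and at -124 and -83 in Aldoc, counted from the start site. The windows at the other start of Tgm1 (chr14:55713039-55713338) and of Aldoc (chr11:78322823-78323122, at the 5′ end of the gene) held 0 copies. In windows from 250 bases before to 50 bases after the start, the motif was present in 2726 of 32851 windows (8.3%) and in any window of 828 of 9792 tested genes (8.46%). It was present in 17 of 151 genes separated in every stage (11.3%), in 3 of 19 STAT5 target genes (Cish, Socs3 and Bcl6) and in 3 of 19 of the genes with the largest rises and falls (Aldoc, Tgm1 and Trp53i11). A match of these letters is a description of the window and does not show that STAT5 binds there.

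On the receptor side, 3 of 22 tested genes of the IL-5 receptor and JAK-STAT list rose and 1 fell, with a median of 0.15. These 18.2% are near the 17.4% called among all tested genes. Csf2rb, the shared beta chain of the receptors for IL-5, IL-3 and GM-CSF, fell by 0.39 on the log2 scale (SE 0.10; adjusted p = 0.0101). Its libraries overlapped, at 148 to 795 CPM with isotype and 125 to 444 CPM under anti-IL5. Without stage IV the adjusted p of Csf2rb was 0.0869. Stat3 and Syk were among the genes that rose.

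The specific receptor chain Il5ra was not called, with libraries from 164 over 307.7 to 598 CPM under anti-IL5 and from 197 over 244 to 488 CPM in isotype libraries (0.23 ± 0.10, SE; adjusted p = 0.122). The effects of Stat5a (0.03 ± 0.14, adjusted p = 0.927) and Stat5b (0.29 ± 0.13, adjusted p = 0.123) did not pass the test.

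Survival genes moved in both directions. Of 16 tested antiapoptotic genes, 5 fell and 2 rose, beside 9.7% and 7.66% of all genes, with a median of -0.44, and of 19 tested proapoptotic genes 1 rose (Fas, 0.44 ± 0.12) and 0 fell, with a median near 0 (-0.0046). The antiapoptotic list had stage medians of 0.07, -0.06, 0.14 and -0.33, and its median was 0.0065 without stage IV (2 lower), 0.0063 among genes with a mean of 10 CPM and -0.22 in limma-voom with an estimated correlation between libraries of equal treatment and replicate number. Bcl2a1a, a member of the BCL2 family that binds proapoptotic BH3 proteins, held 5.18, 5.93 and 8.87 CPM at stage I and 96.5, 115 and 112 CPM at stage IV in isotype libraries. Under anti-IL5 it held 1.30, 1.43 and 2.04 CPM at stage I and 22.4, 16.6 and 11.4 CPM at stage IV.

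The level of Bcl2a1a was 5.05-fold lower: its log2 effect was -2.34 ± 0.18 (SE; adjusted p = 8.23e-09), with stage estimates between -2.04 and -2.68. Its close copies Bcl2a1b and Bcl2a1d fell as well, and since reads of such copies can be split between them the value of any single copy is uncertain. Bcl2l1, which encodes BCL-XL, fell from a median of 42.7 to 23.2 CPM (-0.68 ± 0.15, SE; adjusted p = 0.0025), but at stage I its estimate was -0.07 and without stage IV its adjusted p was 0.0502.

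Birc2 and Birc3, which encode inhibitors of apoptosis of the NF-kB pathway, rose. Birc3 was separated in every stage and rose by 0.62 ± 0.11 (SE; adjusted p = 0.000573), from a median of 107 to 170 CPM. Mcl1 (0.03 ± 0.12, adjusted p = 0.887), Bcl2 (-0.54 ± 0.28, adjusted p = 0.195) and Bcl2l11 (0.28 ± 0.25, adjusted p = 0.481) did not pass the stage-adjusted test.

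**Figure D3:**
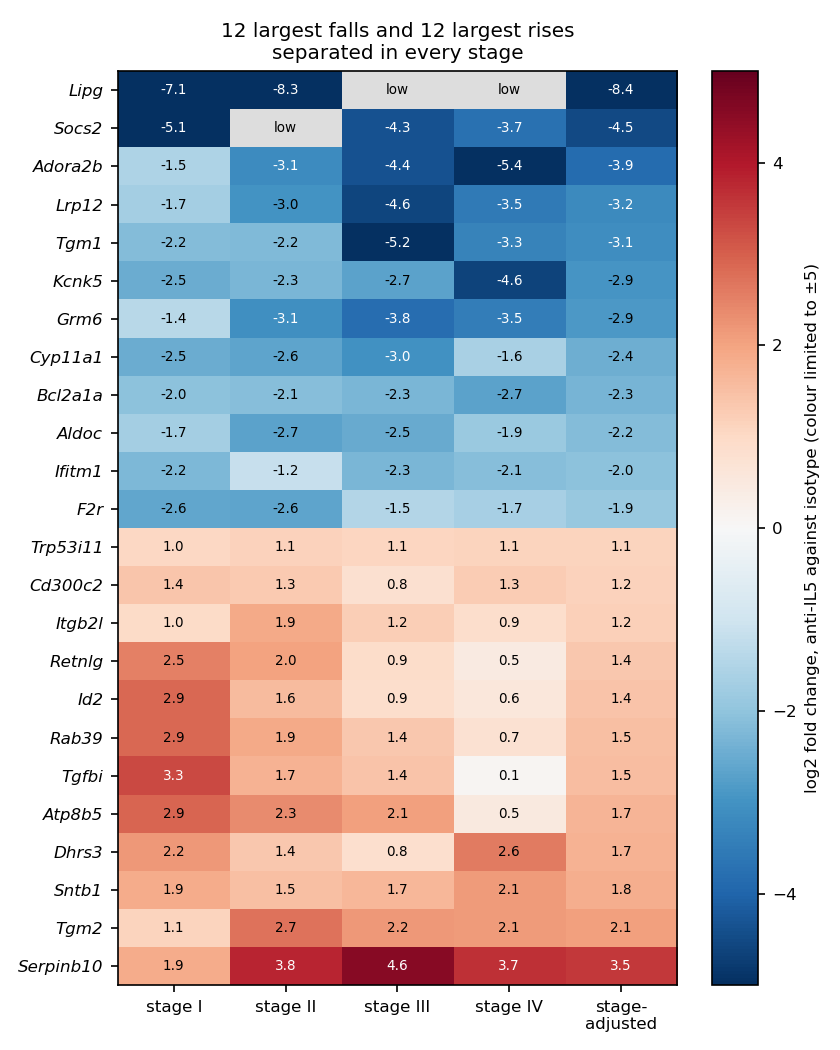
Log2 fold changes under anti-IL5, relative to isotype, for single stages and for all stages together (columns), with red higher and blue lower. Lines are the 12 largest falls and 12 largest rises among genes separated in every stage with at least 10 CPM and no predicted symbol. Grey cells marked low hold 3 counts or fewer in 1 treatment and show no value. Sntb1 and Trp53i11 have similar values at each stage, while Id2 and Tgfbi have values that are largest at stage I (2.9 and 3.3) and smallest at stage IV (0.6 and 0.1).

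The other large falls took in receptors, channels and enzymes. Adora2b, a receptor for adenosine, held 106, 110 and 97.0 CPM in isotype libraries at stage III and 8.92, 4.33 and 2.05 CPM under anti-IL5, with a stage-adjusted effect of -3.85 ± 0.46 (SE; adjusted p = 1.75e-05). F2r, the thrombin receptor, fell by 1.90 and Grm6, a glutamate receptor, by 2.88. The potassium channel gene Kcnk5 fell by 2.93, the membrane receptor gene Lrp12 by 3.18, the interferon-inducible membrane protein gene Ifitm1 by 2.04, and Aldoc, an aldolase of glycolysis, by 2.15, each on the log2 scale with an adjusted p of at most 0.000154 (F2r).

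Cyp11a1, which makes pregnenolone from cholesterol, ran from 7.91 over 23.4 to 78.8 CPM under anti-IL5 and from 30.0 over 142 to 360 CPM in isotype libraries. The highest anti-IL5 libraries were at stage I and the lowest isotype libraries at stage IV, so that the ranges overlapped although no stage did. The effect of Cyp11a1 was -2.44 ± 0.23 (SE; adjusted p = 1.14e-06). Cyp11a1 also stands among the 10 tested genes of the basophil and mast cell list. Of these, 3 fell (Cyp11a1, Gata2 and Ms4a2) and 0 rose, beside 9.7% and 7.66% of all tested genes. The summed level of the 13 genes of that list overlapped at stage I (3069 to 4037 CPM under anti-IL5 and 3710 to 4522 CPM with isotype). It was lower without overlap under anti-IL5 at stage II (1734 to 2223 CPM against 2447 to 3186 CPM), stage III (1239 to 1534 CPM against 2079 to 3151 CPM) and stage IV (450 to 474.5 CPM against 514.8 to 589.5 CPM). The median effect of the 10 tested genes was -0.27, -0.41, -1.29 and 0.22 from stage I to stage IV, so at stage IV it lay above 0. With the estimated correlation 5 of them fell and 1 rose. The mast cell protease genes Mcpt4 and Tpsb2 were at 0 in all 22 libraries. The part of other cells in the fall of Cyp11a1 was not tested.

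Among all genes separated in every stage the largest log2 rise was 5.93. Of those with at least 10 CPM and no predicted symbol, Serpinb10, a serine protease inhibitor of leukocytes, rose most. Its level ran from 1.35 over 3.55 to 44.5 CPM under anti-IL5 and from 0.0758 over 0.905 to 2.67 CPM in isotype libraries. Stage III stood out with 44.5, 35.7 and 34.7 CPM under anti-IL5, and the lowest anti-IL5 libraries, at stages I and IV, overlapped isotype libraries of other stages. The effect was 3.54 ± 0.35 (SE; adjusted p = 8.71e-07), or 11.6-fold higher.

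Tgm2, the ubiquitous tissue transglutaminase and a relative of the falling Tgm1, went the other way. It held 1.42, 1.90 and 2.24 CPM at stage I and 107, 114 and 29.8 CPM at stage IV under anti-IL5, beside 1.18, 0.833 and 0.472 CPM and 23.7, 12.6 and 21.8 CPM in isotype libraries. The effect of Tgm2 was 2.06 ± 0.23 (SE; adjusted p = 3.78e-06).

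Dhrs3, which reduces retinal to retinol, rose by 1.73 ± 0.24 (SE; adjusted p = 5.25e-05), with 28.8, 47.5 and 13.03 CPM against 6.04, 4.17 and 4.59 CPM at stage IV. Trp53i11 (1.10 ± 0.15), Cd300c2 (1.16 ± 0.18), the integrin gene Itgb2l (1.21 ± 0.17), the small GTPase gene Rab39 (1.51 ± 0.27) and the flippase gene Atp8b5 (1.69 ± 0.31) rose as well. For Trp53i11 the 4 stage estimates ran from 1.04 to 1.14, the narrowest span among the 24 largest rises and falls.

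Among the other rises separated in every stage were Nr3c1, the glucocorticoid receptor (0.57 ± 0.07, SE; adjusted p = 1.06e-05), the thioredoxin inhibitor gene Txnip (0.75), the inflammasome protease gene Casp1 (0.81) and the repressor gene Gfi1 (0.79). Nr3c1 comes from the list of glucocorticoid-responsive genes, while Txnip, Casp1 and Gfi1 fall outside the rule for named genes and were chosen after their values were seen.

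Genes of protein production were lower in large part, beside 9.7% of all tested genes that fell and 7.66% that rose. Of 50 tested ribosome biogenesis genes, 37 fell and 0 rose, with a median of -0.58. Of 44 tested genes for protein secretion or the unfolded protein response, 32 fell and 0 rose, with a median of -0.52, and 10 of these were separated in every stage: Hsp90b1, Pdia4, Pdia6, P4hb, Dnajb11, Dnajc3, Manf, Xbp1, Spcs2 and Edem1. Of 25 tested genes of serine synthesis, amino acid supply and ATF4 targets, 11 fell and 0 rose, with a median of -0.50.

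Without stage I, 20 ribosome biogenesis and 7 ATF4 list genes were called lower, and 1 ribosome biogenesis gene was called higher. That fit called 503 of 12087 tested genes lower, beside 1201 of 12387 with all stages. All 3 lists had the stage median nearest to 0 at stage IV. Ribosome biogenesis genes had medians of -0.66, -0.87, -0.55 and -0.17 from stage I to stage IV, and secretory genes of -0.64, -0.69, -0.60 and -0.14. Cytosolic ribosomal protein genes moved less, with 11 of 84 lower and a median of -0.17, a share near the 9.7% of all tested genes that were lower. Over fits without 1 library 7 to 21 of them were called lower, with 21 without either isotype stage IV replicate 2 or anti-IL5 stage IV replicate 1.

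Rrp1b, which acts in processing of ribosomal RNA, held 98.8, 92.6 and 73.6 CPM in isotype libraries and 39.8, 40.8 and 46.2 CPM under anti-IL5 at stage I, and 9.95, 14.6 and 12.8 CPM against 5.84, 6.23 and 9.35 CPM at stage IV. The level thus fell along maturation in both treatments and the difference was present at both ends. The effect of Rrp1b was -0.95 ± 0.11 (SE; adjusted p = 3.87e-06), with stage estimates from -1.10 to -0.80. Nop56 and Nhp2, core proteins of small nucleolar ribonucleoproteins, fell by 0.74 and 0.59 and were also separated in every stage.

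P4hb, the protein disulfide isomerase of the endoplasmic reticulum, ran from 374 over 569 to 1466 CPM under anti-IL5 and from 517 over 1072 to 2453 CPM in isotype libraries. Its effect was -0.72 ± 0.08 (SE; adjusted p = 4.92e-06). Manf, a secreted protein of the endoplasmic reticulum stress response, fell by 0.85, and the chaperone gene Hsp90b1 by 0.66.

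Xbp1, the transcription factor of the unfolded protein response that eosinophil precursors need, held 424, 386 and 430 CPM at stage I under anti-IL5 against 520, 491 and 518 CPM in isotype libraries, and 115, 113 and 146 CPM against 323, 349 and 353 CPM at stage IV. The groups did not overlap within any stage, and the gap widened: the stage estimates were -0.30, -0.83, -1.31 and -1.46. The stage-adjusted effect of Xbp1 was -0.99 ± 0.12 (SE; adjusted p = 8.67e-06), and its interaction of stage and treatment was called (adjusted p = 0.00763).

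Of 25 tested cholesterol synthesis genes, 13 fell and 0 rose, beside 9.7% and 7.66% of all tested genes. Their median was -0.48, and without stage III 7 fell, beside 595 of 12182 tested genes. Mvd, a decarboxylase of the mevalonate pathway, fell by 0.84 and was separated in every stage. Of 22 tested glycolysis genes, 8 fell and 1 rose, beside the same shares of all tested genes. Their median was -0.08, and 2 fell with the means over stages, beside 519 of 12387 tested genes. Next to Aldoc, the falls of Tpi1 (-0.40) and Ldha (-0.34) were small.

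**Figure D4:**
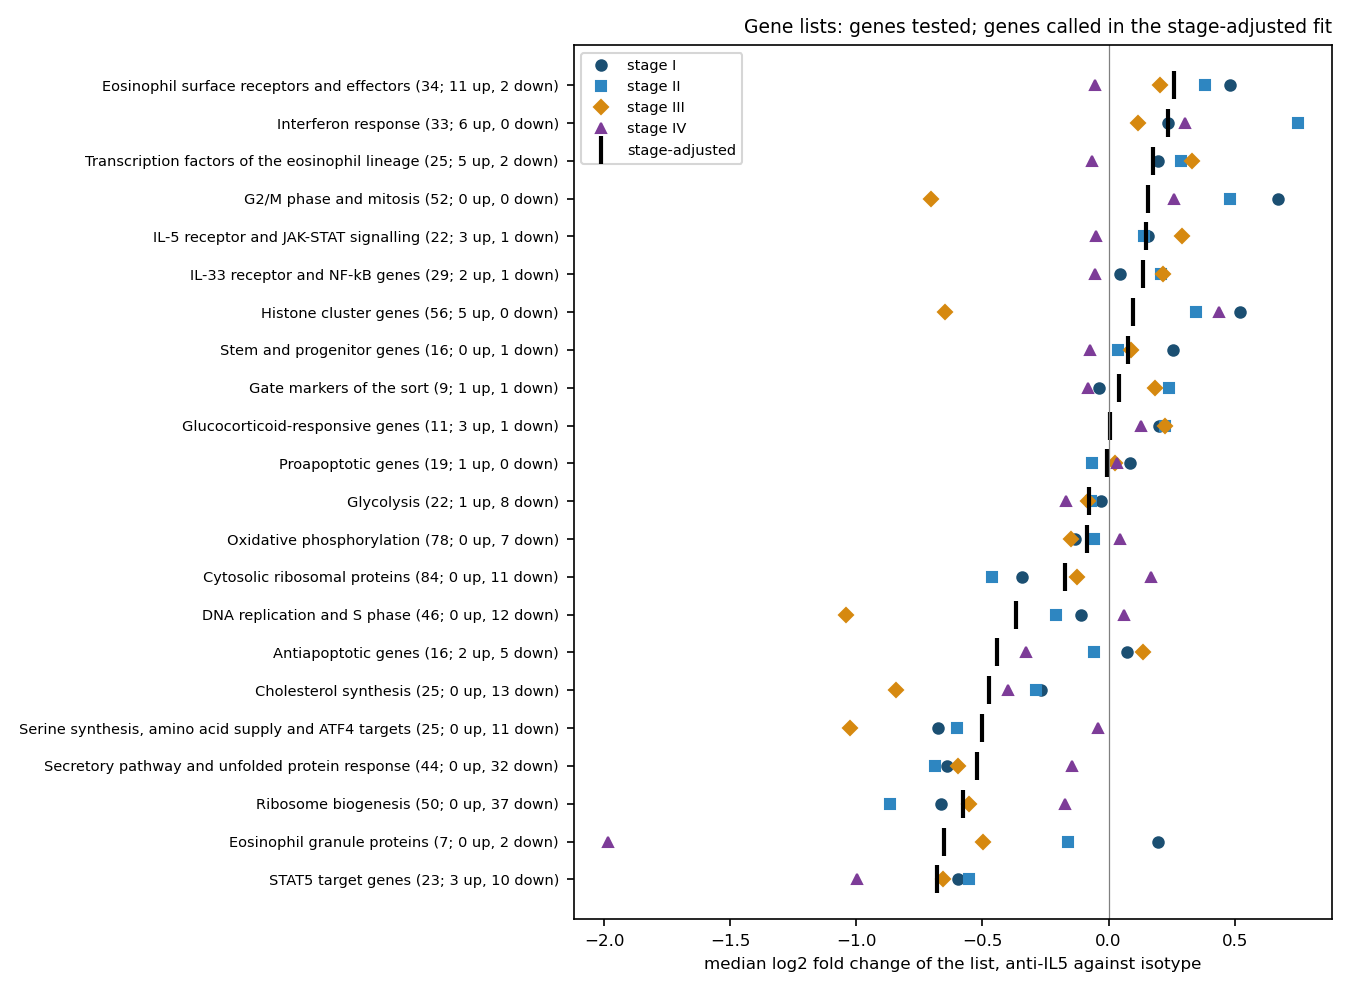
Median log2 fold change of anti-IL5 against isotype (horizontal axis) for gene lists (lines, with the number of genes tested, called higher and called lower), with a marker for each stage and a black bar for the stage-adjusted effect. The STAT5 target list has its median between -0.55 and -0.997 at every stage, while the G2/M list has medians of 0.67, 0.48, -0.71 and 0.26 from stage I to stage IV.

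Cell cycle genes differed by stage. Of 46 tested S phase genes, 12 fell (Mcm2, Mcm3, Mcm4, Mcm5 and Mcm6 of the replicative helicase among them) and 0 rose. Of all tested genes 9.7% fell and 7.66% rose. The S phase list had a median of -0.37, and its stage medians were -0.11, -0.21, -1.04 and 0.06. Without stage III 1 S phase gene was called lower, beside 595 of 12182 tested genes, and the median was -0.06. Without isotype replicate 2 at all stages 5 were called lower, beside 748 of 12850 tested genes. Of 52 tested G2/M genes 0 were called in the stage-adjusted edgeR fit, beside 17.4% of all tested genes. An unadjusted p under 0.05 was found for 3 of them, beside 30.5% of all tested genes. The edgeR mean of the 4 stage effects with equal weights called 4 higher, beside 1065 of 12387 tested genes. DESeq2 and limma-voom each called 2 higher. With the estimated correlation, where 15.1% of all genes were called, 1 G2/M gene was called. Without stage III 13 were called higher, beside 436 of 12182 tested genes. Mki67, a proliferation marker, ran from 8.59 over 73.7 to 464 CPM under anti-IL5 and from 6.29 over 135 to 390 CPM in isotype libraries, and was not called (-0.08 ± 0.22, SE; adjusted p = 0.844).

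Of 7 tested eosinophil granule genes, 2 fell (Epx and Prg3) and 0 rose, beside 9.7% of all tested genes that fell. The estimates of all 7 lay below 0, with a median of -0.65 and stage medians of 0.19, -0.16, -0.50 and -1.98 from stage I to stage IV. Without stage IV 1 was called and the median was -0.18. Epx, the eosinophil peroxidase, held 20500, 23220 and 23580 CPM in isotype libraries at stage I and 583, 208 and 375 CPM at stage IV, and under anti-IL5 it held 19550, 16020 and 19400 CPM at stage I and 87.0, 53.3 and 28.9 CPM at stage IV. The groups were separated at each stage, narrowly at stage I.

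The stage-adjusted effect of Epx was -1.37 ± 0.29 (SE; adjusted p = 0.00253), and the interaction was called (adjusted p = 0.0298). Prg2, which encodes major basic protein, missed the threshold (-0.65 ± 0.24, SE; adjusted p = 0.0606), with a stage I estimate of 0.22 and a stage IV estimate of -1.98. Siglecf (-0.03, adjusted p = 0.854), Gata1 (0.12, adjusted p = 0.381) and Cebpe (-0.0041, adjusted p = 0.982), a marker of the sort and 2 transcription factors of the lineage, were not called. Epx, Prg2, Siglecf, Gata1, Cebpe and Il5ra were present in every library, the lowest value being 28.9 CPM (Epx). For the surface receptor gene Ccr3 the lowest value was 2.50 CPM in isotype libraries and 17.9 CPM under anti-IL5.

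Of 34 tested surface receptor and effector genes, 11 rose and 2 fell, beside 7.66% and 9.7% of all tested genes. Their median was 0.26, with stage medians of 0.48, 0.38, 0.20 and -0.06. With the estimated correlation 8 were called higher and 1 lower, and without stage I 5 higher, beside 393 of 12087 tested genes. Ccr3, the eotaxin receptor, rose by 1.10 ± 0.26 (SE; adjusted p = 0.00557). At stage I Ccr3 held 35.1, 26.7 and 17.9 CPM under anti-IL5 and 6.80, 2.50 and 5.38 CPM in isotype libraries, and at stage IV 3234, 3322 and 3132 CPM against 2577, 2841 and 2740 CPM. The groups did not overlap at either stage but did at stage III, and the stage I estimate was 2.41 and the stage IV estimate 0.25.

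The chemokine receptor gene Cxcr4 (0.89 ± 0.16, SE; adjusted p = 0.000742) and the tetraspanin gene Cd9 (0.63 ± 0.12) rose, and Ltc4s, the leukotriene C4 synthase, fell by 1.57 ± 0.37 (adjusted p = 0.00491) at 0.0961 to 4.15 CPM. The receptor for IL-33, Il1rl1, was not called (-0.34 ± 0.16, SE; adjusted p = 0.162). Of 9 tested sort markers, Pirb rose by 0.66 (adjusted p = 0.013) and Cd55 fell by 0.45 (adjusted p = 0.0247). These 22.2% are near the 17.4% called among all tested genes. Pirb had stage estimates of both signs, with a called interaction of stage and treatment (adjusted p = 0.0280). Without stage I its adjusted p in the stage-adjusted test was 0.125. The call of Cd55 was lost in 3 fits that left out 1 library and with the estimated correlation (adjusted p = 0.0865).

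Of 14 tested markers of mature neutrophils, 6 rose (Retnlg, S100a9, Ngp, Mmp9, Ltf and Cd177) and 0 fell, beside 7.66% and 9.7% of all tested genes. Their median was 0.99. The summed level of the list was 2258 to 6387 CPM under anti-IL5 and 2551 to 3564 CPM with isotype at stage I, 6873 to 7504 against 4450 to 6427 CPM at stage II, 10360 to 13800 against 6740 to 10700 CPM at stage III, and 7537 to 8648 against 4906 to 5954 CPM at stage IV. It was thus higher without overlap at stages II and IV. Without anti-IL5 replicate 1 at all stages 12 neutrophil genes were called, beside 1519 of 12909 tested genes. Without anti-IL5 replicate 2 at all stages 3 were called, beside 1314 of 12833 tested genes. Retnlg, a secreted protein of the resistin family, held 28.2, 31.5 and 33.6 CPM at stage I and 6020, 4353 and 4219 CPM at stage IV under anti-IL5, beside 4.44, 6.56 and 5.28 CPM and 3615, 3044 and 3957 CPM in isotype libraries.

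The effect of Retnlg was 1.36 ± 0.24 (SE; adjusted p = 0.000646) with separation in every stage. S100a9 rose by 0.98 and Mmp9 by 1.498, and neither was separated in more than 2 stages. Of 7 tested neutrophil primary granule genes, 0 rose and 1 fell (Cst7), and 3 fell with the estimated correlation. Their summed level was lower without overlap under anti-IL5 at stage II (746 to 773 CPM against 1030 to 1097 CPM). The same held at stage III (225.5 to 246 CPM against 288 to 466 CPM), while the groups overlapped at stages I and IV. Gene by gene, 4 of the 7 estimates lay above 0 and 3 below, with a median of 0.23. The stage medians were -0.45, -0.58, 0.77 and 1.29 from stage I to stage IV, so sum and median differed in direction at stage III. Cst7 alone held 51.3 to 165 CPM under anti-IL5 and 95.5 to 204.5 CPM with isotype. The part of neutrophils in these values was not tested. Haemoglobin genes (Hba-a1, Hba-a2, Hbb-bs and Hbb-bt) and the lymphoid genes Cd8a, Thy1 and Ncr1 were at 0 in all 22 libraries. The counting tool and gene models are not stated, so 0 counts need not mean that no transcript was present. Other lymphoid genes were not at 0: the 15 T, NK and innate lymphoid genes together held 764 to 1024 CPM under anti-IL5 at stage I. With isotype they held 879 to 1236 CPM. Their sum was lower without overlap under anti-IL5 at stage II (207 to 287 CPM against 474 to 524 CPM) and stage III (27.0 to 30.5 CPM against 94.1 to 234 CPM). Nkg7 alone reached 1018 CPM under anti-IL5 and 1232 CPM with isotype, nearly all of the highest sums. Of the 4 tested lymphoid genes, Nkg7 fell by 1.11 and was the only one with an estimate below 0. The other 3 estimates lay above 0, and the median was 1.01. Among markers of other cells, 2 of 16 tested monocyte, 2 of 7 megakaryocyte, 1 of 7 B lineage, 1 of 10 erythroid, 1 of 4 lymphoid and 0 of 12 dendritic genes were called, beside 17.4% of all genes. With the estimated correlation 3 erythroid genes were called lower and 0 B lineage genes were called. All 7 B lineage estimates lay above 0 (median 1.48), and the B lineage sum overlapped except at stage I (70.8 to 113.7 CPM against 35.5 to 49.8 CPM). The erythroid sum was lower without overlap at stages I (110.5 to 157.8 against 165.3 to 218.2 CPM) and II (83.2 to 92.7 against 132.1 to 141.6 CPM). Erythroid estimates lay above 0 for 7 genes and below for 3. The megakaryocyte sum was higher without overlap at stages III and IV.

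Interferon response genes depended on 1 replicate number of the isotype group. Their summed level in isotype replicate 3 was 1213 CPM at stage I, 3302 CPM at stage III and 3459 CPM at stage IV, above all anti-IL5 libraries of the same stage. The other isotype libraries held 490 and 503.7 CPM at stage I, 552 and 624 CPM at stage II, 1092 and 1429 CPM at stage III, and 1302 and 1475 CPM at stage IV, below all anti-IL5 libraries of the same stage. Anti-IL5 libraries held 713 to 859 CPM, 864 to 1124 CPM, 1975 to 2178 CPM and 2596 to 2992 CPM from stage I to stage IV.

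Of 33 tested interferon response genes, 6 rose and 0 fell (18.2%, near the 17.4% of all genes), with a median of 0.24. Without the 3 libraries of isotype replicate 3, 27 of 32 were called higher, beside 764 of 12329 tested genes, and the median was 0.93. Without isotype replicate 2 at all stages 3 were called, beside 1396 of 12850 tested genes, and the median was -0.0060. With the replicate number as a block 10 were called, with a median of 0.62. Gbp2, an interferon-induced GTPase, rose by 1.36 ± 0.30 (SE; adjusted p = 0.00326).

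The test of the stage by treatment interaction called 133 genes (1.07%), of which 112 had stage estimates of both signs and 84 were not called in the stage-adjusted test. Of the 193 genes separated in every stage, 6 were among them. The 6 genes of smallest p with estimates of both signs were Cpa3, Id1, Bank1, Adam19, Tmem215 and Emb. Cpa3, the mast cell carboxypeptidase, held 11.7, 14.04 and 9.35 CPM under anti-IL5 against 168, 114 and 354 CPM at stage III, but 15.6, 12.01 and 9.62 CPM against 11.2, 5.99 and 7.59 CPM at stage IV.

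Id1, an inhibitor of bHLH transcription factors, held 324, 245 and 155 CPM under anti-IL5 against 64.3, 69.5 and 69.3 CPM at stage I, and 68.0, 41.4 and 31.3 CPM against 112, 163 and 107 CPM at stage IV. Id1 was therefore high under anti-IL5 at stage I and low at stage IV, with a stage-adjusted estimate of 0.53 that was not called (adjusted p = 0.306). Emb, a cell adhesion glycoprotein, went the opposite way, with -1.52 at stage I and 0.91 at stage IV.

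Id2, the related inhibitor, kept 1 direction. It held 290, 264 and 190 CPM under anti-IL5 and 38.8, 25.6 and 38.2 CPM in isotype libraries at stage I, and 1337, 992 and 1197 CPM against 765, 828 and 785 CPM at stage IV. Anti-IL5 libraries were higher at each stage, by 2.85, 1.56, 0.87 and 0.57 on the log2 scale. The stage-adjusted effect of Id2 was 1.42 ± 0.22 (SE; adjusted p = 0.000213), and its interaction had an adjusted p of 0.000184. Tgfbi, a matrix protein induced by TGF-beta, likewise rose by 1.53 ± 0.30 (SE; adjusted p = 0.00152), with 3.31 at stage I and 0.11 at stage IV.

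**Figure D5:**
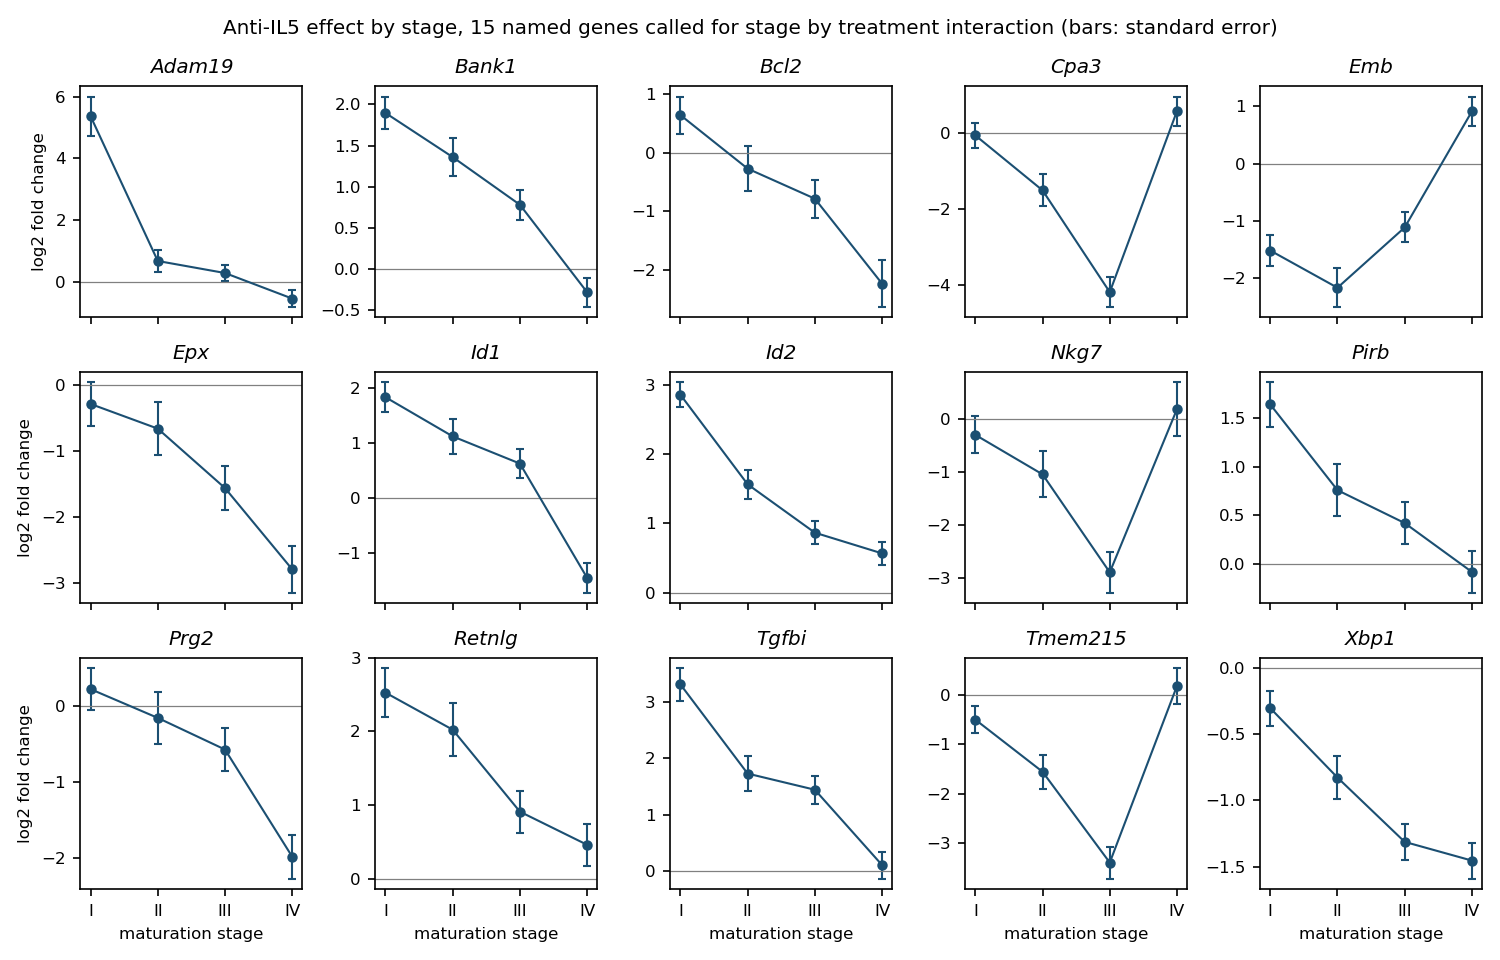
Log2 fold change of anti-IL5 against isotype (vertical axis, bars are standard errors, scales differ between panels) at each stage (horizontal axis) for the 15 named genes with a called interaction of stage and treatment. Id2, Retnlg, Tgfbi and Xbp1 keep 1 sign, while Id1, Emb and Cpa3 change sign at stage IV.

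Depth ran from 7161264 to 14781250 gene counts per library, between 12359 and 13829 genes were seen, and 3 counts equalled 0.222 to 0.411 CPM. Exact permutation tests within stage (two-sided, 48000 assignments, 11 libraries a treatment, 4 measures) gave p = 0.777 for counts (adjusted 0.777), 0.102 for genes seen (adjusted 0.203), 0.404 for the share of the 10 most abundant genes (adjusted 0.539) and 0.101 for the share of reads in no feature (adjusted 0.203). Counts of a library are reads amplified without molecular barcodes named in the labels, so that floors cover counting error only.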

How the data were processed

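Libraries were prepared with SMART-Seq v4 (17 cycles) and Nextera XT, per the labels' protocols. These kits do not mark strand, so reads from overlapping or antisense genes cannot be separated. STAR 2.6.1a, build mm10 and DESeq2 (without its role) are named per the submitters' processing notes, while the tool, gene models and strand option used for counting are not stated there. The deposited files hold raw counts per gene symbol. Left out of tests and library sizes were 2 lines for reads in no feature (12.7% to 22.1% of counts) and ambiguous reads (1.86% to 2.39%).

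Counts were fitted with edgeR 4.0.16 in R 4.3.3 (TMM, filterByExpr on the 8 groups of stage and treatment, robust quasi-likelihood F test) with stage and treatment as terms. The interaction of stage and treatment (3 terms) and the stage estimates came from a fit with 8 groups. The SE is the log2 fold change divided by the square root of F. Alternatives were DESeq2 1.42.0, limma 3.58.1 (voom), other scalings and filters, stages or libraries left out, a replicate block, a sample block (limma-voom with an estimated correlation between libraries of equal treatment and replicate number, 0.071) and unit means (log2 CPM averaged over stages I, III and IV per treatment and number, 3 against 3). The code was tested on simulated data, and no replicate library was found to be a copy of another.

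Named genes are the 12 largest rises and 12 largest falls among called genes separated in every stage with at least 10 CPM, leaving out predicted symbols, up to 4 called genes of smallest p per list (32 lists), genes fixed by name, the 6 leading interaction genes of both signs, and genes separated over all libraries. The members, lists and rules were chosen with earlier results of these data known. Gene positions and promoters are from RefSeq GRCm38.p6, where 122 of 126 named genes were matched by symbol. Some genes that this rule names are not reported here.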

Additional observations from a re-analysis of the deposited data

Results flagged for a closer look

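The effect of anti-IL5 differed between stages for 133 genes by the edgeR interaction test (3 terms, Benjamini-Hochberg adjusted p). Among the named genes it did so for Cpa3 (adjusted p = 0.000448), Id1 (0.000891), Bank1 (0.00115), Adam19 (0.00117), Tmem215 (0.00117) and Emb (0.00119), the leading genes with stage estimates of both signs. It also did so for Id2 (0.000184), Tgfbi (0.00113), Xbp1 (0.00763), Epx (0.0298) and Retnlg (0.0395), which kept 1 sign, and for Prg2 (0.0251), Nkg7 (0.0278), Bcl2 (0.0280) and Pirb (0.0280), which did not. Tmem215, a little studied membrane protein gene, held 1.57, 1.35 and 2.85 CPM under anti-IL5 and 18.1, 17.1 and 26.0 CPM in isotype libraries at stage III, but 1.79, 1.07 and 2.07 CPM against 1.19, 2.05 and 1.03 CPM at stage IV. Bcl2, the founding antiapoptotic gene, had estimates of 0.64 at stage I and -2.24 at stage IV. Adam19, a membrane protease, held 7.46, 6.76 and 2.14 CPM under anti-IL5 and at most 0.283 CPM in isotype libraries at stage I, but 259, 248 and 381 CPM against 479, 379 and 431 CPM at stage IV.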

How the results depend on the processing

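The count of 2150 called genes came to 917 with unit means, 896 without stage I, 1031 without stage III, 1869 with the sample block and 2372 with the replicate block. It ranged from 1783 to 2212 over fits without 1 library, and from 1314 (without anti-IL5 replicate 2 at all stages) to 1780 over fits without all libraries of 1 treatment and number, with 1396 without isotype replicate 2. The cause of these shifts was not tested, except that several of these fits use fewer libraries. The replicate numbers were not taken as pairs, since libraries of equal number and stage correlated across treatments over 0.1 in 2 of 11 pairs. Both pairs were at stage II (0.34 each), where groups of 2 libraries give the 2 pairs 1 value by construction. Libraries of equal number and treatment correlated over 0.1 across stages in 16 of 30 pairs (median 0.11). Libraries of different stages may therefore not be independent, and the unit means bear on this. The interaction count of 133 was 503 with the DESeq2 likelihood ratio test, 286 without stage II and 50 (without anti-IL5 stage I replicate 2) to 220 (without isotype stage II replicate 1) over fits without 1 library, and 165 with the replicate block. Genes separated in every stage were 2.41% of those tested without stage II, which drops 1 condition, and 1.58% to 2.21% without 1 library, beside 1.56%. Those separated over all libraries numbered 6 to 10. All 193 stayed called with the sample block, and 173 with unit means. The 24 largest rises and falls kept their call in every fit. The 193 and the 24 genes were picked by call and separation in these same libraries, so that they stay called is no separate test.

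Some genes that were not called changed sign. Adam19 was -0.043 with the sample block. Cebpe was 0.0030 without a count filter, 0.021 as an equal-weight mean and 0.024, 0.019 and 0.036 without stage I, III or IV. Mcl1 was -0.0037 with total counts, -0.033 with unit means and -0.025 and -0.0094 without stage II or III. Mki67 was 0.0011 with voom, 0.0029 with the sample block and 0.27 without stage III. Siglecf was 0.14 without stage IV. Stat5a was -0.0074 with total counts and -0.16 and -0.020 without stage III or IV. Over fits without 1 library, Cebpe ran from -0.053 to 0.043, Mcl1 from -0.026 to 0.081, Mki67 from -0.19 to 0.043, Siglecf from -0.070 to 0.021 and Stat5a from -0.040 to 0.11. Without all libraries of 1 treatment and number, Cebpe was 0.013 (anti-IL5 replicate 2), 0.054 (anti-IL5 replicate 3) and 0.037 (isotype replicate 1), Mcl1 -0.053 (anti-IL5 replicate 1) and -0.10 (isotype replicate 2), Mki67 0.054 (anti-IL5 replicate 3) and Stat5a -0.083 (isotype replicate 1). Genes with few counts, such as Lipg under anti-IL5, are limited by depth.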
